A study of Homo sapiens with 24 samples.

Results

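The 40 genes described here are the interferon-stimulated genes and the genes of the cGAS-STING pathway, taken by symbol from a fixed list and found among the 57736 genes of an RNA-seq count table from U87-T glioblastoma cells. They hold 3 sensors of nucleic acids or of their messengers (CGAS, STING1, IFIH1), 4 transcription factors (STAT2, IRF1, IRF7, IRF9), the IFIT and OAS families, ISG15 with its ligases and protease, 4 membrane proteins, 3 GTPases and 14 other effectors. All 40 had a count above 0 in at least 1 library, and counts were high enough to test 36 of them in the DAXX series and 37 in that of ATRX. U87-T is the U87 glioblastoma line transduced with telomerase. The DAXX series compared WT cells with DAXX_KO cells, and the ATRX series compared such WT cells with ATRX_KO cells, each without treatment (control) and with etoposide, a topoisomerase II poison that leaves DNA double-strand breaks. The control line of the study, sgCon, carries the Cas9 vector in its empty form. Each of the 8 groups had 3 libraries. Each knockout was a single-cell CRISPR/Cas9 clone, which the study's methods call positive for alternative lengthening of telomeres (ALT), so that the loss of the protein and the history of the clone cannot be told apart. The labels give no dose or duration of etoposide for these libraries.

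Interferon-stimulated genes are switched on when interferons bind their receptors on the cell surface and the kinases JAK1 and TYK2 activate a complex that holds STAT2 and IRF9. It binds the interferon-stimulated response element, a pair of GAAA repeats. cGAS senses DNA in the cytosol and makes a cyclic dinucleotide that activates STING, which leads through TBK1 and IRF3 to interferon transcription, and MDA5 (encoded by IFIH1) senses long double-stranded RNA. The protein products block translation, degrade RNA, trap virions or conjugate ISG15 to other proteins. DAXX and ATRX together deposit the histone variant H3.3 in heterochromatin and at telomeres, and cells that lengthen telomeres without telomerase often lack ATRX or DAXX.

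Library totals were 6928950 to 13298557 counts. DAXX mRNA was 34.5 ± 1.27 CPM (library-scaled counts, mean ± SD, n = 3) in WT control cells and 5.92 ± 1.08 in DAXX_KO, and ATRX mRNA was 189.5 ± 5.07 CPM in WT and 79.4 ± 5.73 in ATRX_KO. One label of the DAXX_KO samples gives their genotype as ATRX KO, but ATRX mRNA was 393 ± 26.6 CPM there and 233 ± 14.4 in WT of that series, so the titles were followed. The glioma and mesenchymal markers VIM, CD44 and SPARC had at least 10656, 2622 and 1143 counts in every library, whereas the astrocyte markers GFAP, S100B and AQP4 reached at most 6, 0 and 1 counts. The immune cell markers CD3E, MS4A1 and CD14 were at 3, 3 and 6 counts or fewer and PTPRC at 17 or fewer. Other markers listed for these cell types (FN1, CHI3L1, NES, SLC1A2, LYZ and CSF1R) and those of endothelial and epithelial cells are not given here. IFNA1, IFNB1 and IFNK had 0 counts in all 24 libraries, which allows up to 3 counts per library, that is 0.215 to 0.407 CPM, and IFNE, IFNG and IFNL1 reached at most 1, 2 and 3 counts.

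Promoter sequences of 30 of the 40 genes were in the RefSeq table used (GRCh38.p14, 250 bases before to 50 after each start). The 10 genes not in it were CGAS, STING1, IRF7, IFIT2, OAS2, OASL, USP18, IFITM2, MX2 and TRIM22. The pattern GAAA, any 2 bases, GAAA, on either strand, stood for the interferon-stimulated response element and was present in 22 of the 30 genes (73.3%), against 4.38% of the 27305 genes of the table. The gamma-activated site, TTC, any 3 bases, GAA, was in 10 of 30 (33.3%), against 9.38% of all genes. IRF1, IRF9, OAS1 and IFI35 had the second pattern and not the first, and HERC6, STAT2, XAF1 and SAMD9L had neither in this window. Shown here are the 130 bases before the start of 6 members, 5′ to 3′, with the matches of the first pattern in capitals. HERC5, DDX60, IFI44L and PARP14 were higher in both knockouts, and IFIT1 and IFITM3 were lower in ATRX_KO. TTTC on the printed strand is GAAA on the other.
HERC5, GRCh38.p14 chr4:88456989-88457118, plus strand: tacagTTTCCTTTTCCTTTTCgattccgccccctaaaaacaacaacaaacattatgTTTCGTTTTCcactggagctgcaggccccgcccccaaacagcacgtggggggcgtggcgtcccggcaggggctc
DDX60, GRCh38.p14 chr4:168318753-168318882, minus strand: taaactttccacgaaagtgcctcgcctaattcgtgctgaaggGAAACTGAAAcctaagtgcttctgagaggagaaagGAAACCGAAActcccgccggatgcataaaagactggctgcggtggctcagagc
IFI44L, GRCh38.p14 chr1:78620318-78620447, plus strand: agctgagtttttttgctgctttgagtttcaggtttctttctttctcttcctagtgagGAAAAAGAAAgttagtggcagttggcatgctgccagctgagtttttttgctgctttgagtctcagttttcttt
PARP14, GRCh38.p14 chr3:122680709-122680838, plus strand: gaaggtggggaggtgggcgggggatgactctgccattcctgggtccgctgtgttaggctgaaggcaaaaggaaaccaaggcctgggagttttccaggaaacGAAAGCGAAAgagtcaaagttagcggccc
IFIT1, GRCh38.p14 chr10:89392493-89392622, plus strand: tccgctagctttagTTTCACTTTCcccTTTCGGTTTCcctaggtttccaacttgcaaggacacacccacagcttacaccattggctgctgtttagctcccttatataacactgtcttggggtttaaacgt
IFITM3, GRCh38.p14 chr11:320861-320990, minus strand: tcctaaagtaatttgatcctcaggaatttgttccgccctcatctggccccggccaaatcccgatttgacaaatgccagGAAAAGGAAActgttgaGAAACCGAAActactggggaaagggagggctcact
HERC5 has 3 matches, at 125, 119 and 74 bases before the start, of which the first pair overlap. DDX60 has matches at 88 and 53 bases before the start, IFIT1 at 116 and 103, and IFITM3 at 52 and 35. PARP14 has 1, at 29 bases before the start, and IFI44L has 1 in this stretch, at 73. Genes with a match were called in both directions: in ATRX_KO control cells 8 of 19 tested were higher and 4 lower, and of the 8 without a match 3 were higher and 2 lower. In DAXX_KO control cells the counts were 9 higher and 3 lower of 18 with a match, and 3 higher and 1 lower of 8 without. Of all genes tested, 20.8% were higher and 21.0% lower in ATRX_KO, and 26.7% and 26.6% in DAXX_KO.

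Which of these genes moved when DAXX or ATRX was lost was asked first in control cells. In DAXX_KO, 18 of 36 members tested were higher than in WT and 4 were lower at a false discovery rate of 0.05, where 26.7% and 26.6% of all 15247 genes tested were. The median log2 fold change of the members was 0.49, against 0.016 over all genes. In ATRX_KO, 14 of 37 members were higher and 9 lower, where 20.8% and 21.0% of all 16371 genes were, with a median of 0.41 against 0.019. A set of 12 members were higher in both knockouts: IFIT2, IFIT3, OAS3, OASL, HERC5, HERC6, IFI35, IFI44L, DDX60, TRIM22, PARP9 and PARP14. Of all 15039 genes tested in both series, 10.7% were higher in both. The DAXX_KO calls of IFIT2, PARP9 and TRIM22 were lost under 7, 7 and 6 of the alternatives (adjusted p = 0.0543 to 0.134, 0.0503 to 0.149 and 0.0563 to 0.133), DESeq2 among them, and that of IFIT3 without 1 library (adjusted p = 0.0536). The ATRX_KO calls of IFIT2, PARP9 and TRIM22 were lost under 2, 2 and 4 (adjusted p = 0.0626 to 0.0728, 0.0548 to 0.0550 and 0.0564 to 0.183). IRF1, IFI6 and SAMD9 were lower in both, USP18, IFITM2 and IFITM3 were higher in DAXX_KO and lower in ATRX_KO, and 9 members passed in neither (CGAS, STING1, IFIH1, STAT2, IRF7, MX1, IFI44, ISG20 and XAF1). Across the 36 members tested in both series, which have separate WT libraries, Spearman's correlation of the 2 sets of fold changes was 0.595, and it was 0.397 across all 15039 shared genes. These are correlations across genes, which are not independent replicates. By role, all 4 OAS genes and all 4 genes of the ISG15 group were higher in DAXX_KO, where ISG15 lost its call without WT control replicate 2 or 3 or DAXX_KO control replicate 3 (adjusted p = 0.0557 to 0.107) and USP18 without DAXX_KO control replicate 1 (adjusted p = 0.0665). Of the 3 sensors and the 3 GTPases, 0 were called in DAXX_KO. In ATRX_KO 2 of the 4 OAS genes were higher, and of the ISG15 group 2 were higher and 1 lower. Scaling by library totals alone moved the median of all genes in DAXX_KO to 0.20 and gave 22 members higher and 3 lower, where 36.3% and 18.5% of all genes were. P-values come from edgeR's quasi-likelihood test with Benjamini-Hochberg adjustment over all genes tested, and they measure the spread between libraries. The study describes its replicates as biological, and the labels do not say which libraries came from separate cultures. In bulk RNA, fewer cells that express a gene and less RNA per cell cannot be told apart.

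**Figure D1:**
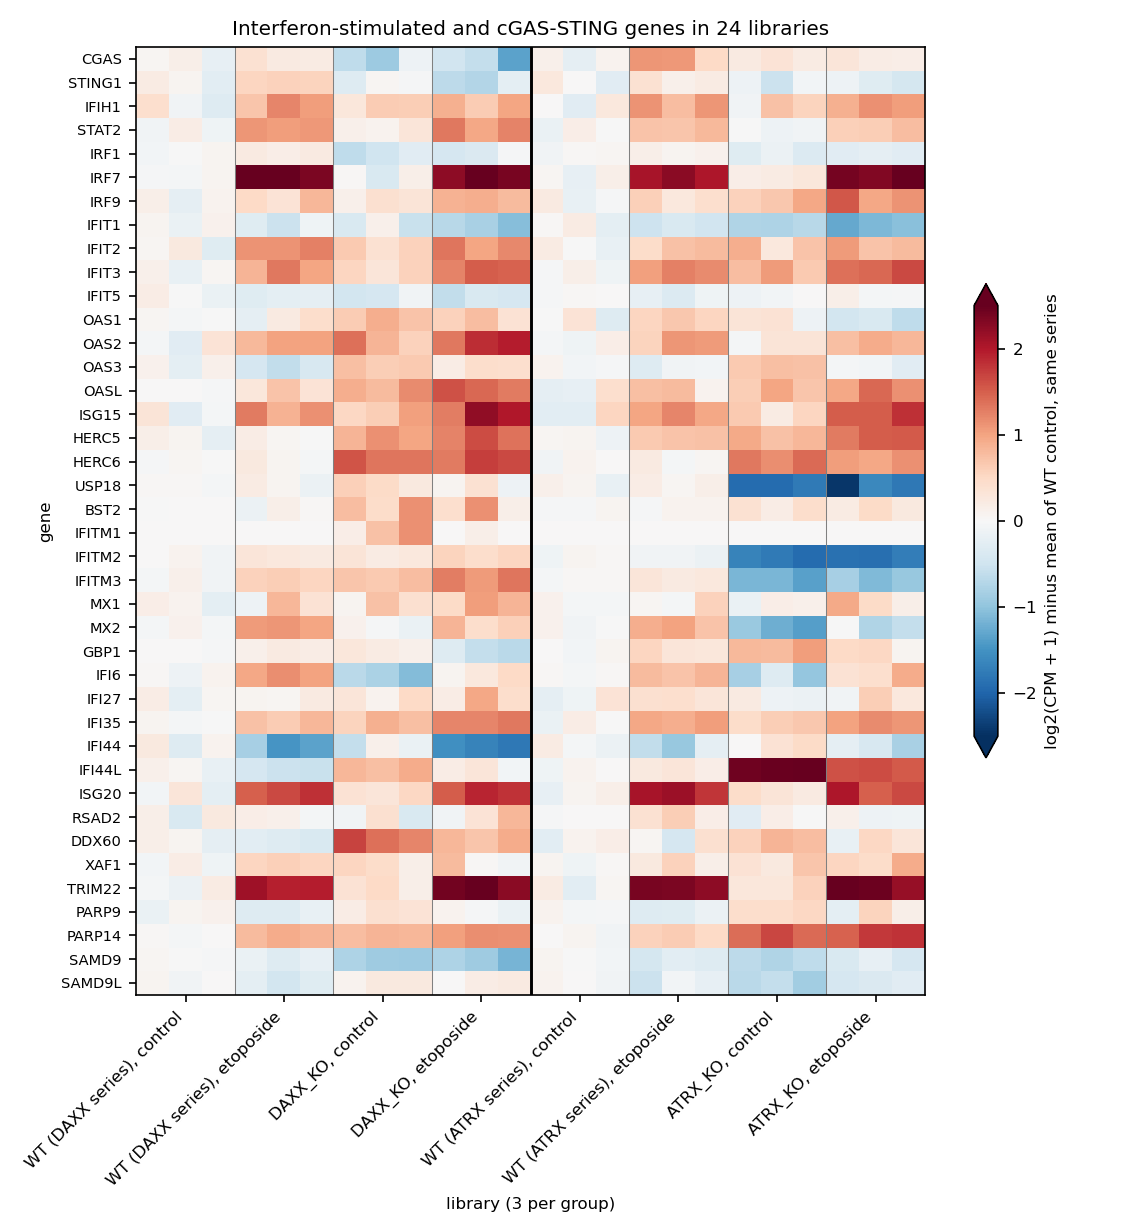
Each row is a gene and each column a library (3 per group, DAXX series on the left of the black line). Color gives log2(CPM + 1) minus the mean of the 3 WT control libraries of the same series. HERC6 and HERC5 are red in all 12 knockout libraries, USP18 and IFITM2 are blue in the 6 ATRX_KO libraries, and IRF7, ISG20 and TRIM22 are red in all 12 etoposide libraries.

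HERC6 and HERC5 lie next to each other on chromosome 4 (GRCh37 chr4:89299891-89364249 and chr4:89378270-89427314). HERC5 is the main ligase that attaches ISG15 to newly made proteins in human cells, and HERC6 is its close relative. HERC6 was at 1.92, 2.11 and 1.95 CPM in the WT control libraries of the DAXX series and at 7.88, 6.57 and 6.5996 in DAXX_KO, and at 1.61, 1.92 and 1.77 in WT and 5.89, 5.21 and 6.34 in ATRX_KO of the other series. No knockout library overlapped a WT library. The rise was 3.51-fold in DAXX_KO (log2 fold change 1.81, SE 0.23, adjusted p = 1.87e-06) and 3.29-fold in ATRX_KO (log2 fold change 1.72, SE 0.22, adjusted p = 6.70e-06), and the difference between the knockouts was not past the threshold (difference of log2 fold changes 0.10, SE 0.29, adjusted p = 0.855). HERC5 was at 19.4, 18.2 and 14.7 CPM in WT and 31.8, 39.5 and 35.4 in DAXX_KO, and at 15.7, 15.9 and 13.7 in WT and 29.96, 25.7 and 27.5 in ATRX_KO. It was 2.04-fold higher in DAXX_KO (log2 fold change 1.03, SE 0.13, adjusted p = 1.39e-06) and 1.84-fold in ATRX_KO (log2 fold change 0.88, SE 0.10, adjusted p = 3.64e-06). Their surroundings differed between the clones. In DAXX_KO the 60 tested genes nearest HERC5, 30 on each side, had a median log2 fold change of 0.59, with 35 higher and 4 lower, and in ATRX_KO the median was 0.0074, with 10 higher and 13 lower. The part of these surroundings in the DAXX_KO values was not tested.

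DDX60, a helicase that assists RNA sensing, stands further along the same chromosome (GRCh37 chr4:169137442-169240034). It was at 4.54, 4.22 and 3.299 CPM in WT and 15.004, 11.9 and 10.6 in DAXX_KO (log2 fold change 1.63, SE 0.19, adjusted p = 5.87e-07). In the ATRX series it was at 2.61, 3.595 and 3.87 CPM in WT and 5.46, 6.78 and 6.42 in ATRX_KO (log2 fold change 0.90, SE 0.27, adjusted p = 0.0125). The lowest knockout library was above the highest WT library in both series. The ATRX_KO call was lost without WT control replicate 1 (adjusted p = 0.0596). The 60 genes around DDX60 had a median of 0.49 in DAXX_KO, with 32 higher and 2 lower, and of 0.043 in ATRX_KO.

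IFI44L (GRCh37 chr1:79085587-79111830), an interferon-induced gene used in many interferon signatures, had the largest change among the members in ATRX_KO. It was at 10.2, 11.8 and 11.1 CPM in WT and 63.6, 65.8 and 82.9 in ATRX_KO, which is 6.44-fold (log2 fold change 2.69, SE 0.11, adjusted p = 1.53e-11). In the DAXX series it was at 12.6, 11.8 and 9.896 CPM in WT and 21.1, 19.97 and 22.7 in DAXX_KO, which is 1.85-fold (log2 fold change 0.89, SE 0.13, adjusted p = 1.47e-05). The WT libraries of both series lay in 1 range and the ATRX_KO libraries stood apart from all the others. The ATRX_KO effect exceeded the DAXX_KO effect (difference of DAXX_KO minus ATRX_KO -1.79, SE 0.17, adjusted p = 4.21e-09). Its relative IFI44, a neighbor on the same chromosome, did not pass in either knockout (log2 fold changes -0.22 and 0.32, adjusted p = 0.408 and 0.234), and the 60 genes around IFI44L had medians of -0.18 and -0.13.

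PARP14, a mono-ADP-ribosyltransferase, followed the same order. It was at 22.5, 21.4 and 22.4 CPM in WT and 38.5, 40.6 and 40.2 in DAXX_KO (log2 fold change 0.85, SE 0.087, adjusted p = 1.04e-07), and at 19.5, 20.6 and 18.3 in WT and 52.7, 63.9 and 53.7 in ATRX_KO (log2 fold change 1.55, SE 0.11, adjusted p = 6.72e-09). All knockout libraries were above all WT control libraries, and the effect was larger in ATRX_KO (difference -0.70, SE 0.14, adjusted p = 2.21e-04). PARP9, which lies beside it on chromosome 3 and overlaps its partner DTX3L on the opposite strand, was higher by 0.33 and 0.50 on the log2 scale (adjusted p = 0.0296 and 0.0172). The DAXX_KO call of PARP9 was lost under DESeq2, RLE factors, no filter and a model of all 24 libraries and without WT control replicate 1 or DAXX_KO control replicate 2 or 3 (adjusted p = 0.0503 to 0.149), and the ATRX_KO call without WT control replicate 2 or 3 (adjusted p = 0.0548 to 0.0550).

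The OAS genes encode enzymes that make 2′-5′-linked oligoadenylates, which activate RNase L, except for OASL, which has lost that activity. OAS1, OAS3 and OAS2 stand side by side on chromosome 12. OAS2 was at 2.12, 1.64 and 3.05 CPM in WT and 7.37, 4.82 and 3.79 in DAXX_KO (log2 fold change 1.23, SE 0.30, adjusted p = 0.00177). OAS1 was at 3.73, 3.397 and 3.54 CPM in WT and 6.103, 7.505 and 6.48 in DAXX_KO (log2 fold change 0.91, SE 0.23, adjusted p = 0.00234). Neither passed in ATRX_KO control cells, where OAS2 was at 2.304, 3.31 and 3.29 CPM against 2.302, 2.17 and 2.86 in WT and OAS1 at 2.39, 2.48 and 1.49 against 1.69, 2.42 and 1.18, with overlapping libraries. OAS3 was higher in both knockouts (log2 fold changes 0.70 and 0.74, adjusted p = 1.26e-04 and 2.61e-05). OASL was at 1.51, 1.52 and 1.47 CPM in WT and 3.69, 3.35 and 4.64 in DAXX_KO (log2 fold change 1.37, SE 0.28, adjusted p = 3.91e-04), and at 1.15, 1.17 and 2.35 in WT and 2.82, 3.97 and 3.05 in ATRX_KO (log2 fold change 1.08, SE 0.33, adjusted p = 0.0151). The ATRX_KO call of OASL, from 14 to 48 counts per library, was lost without WT control replicate 1 or 2 or ATRX_KO control replicate 2 (adjusted p = 0.0661 to 0.0678).

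USP18 (GRCh37 chr22:18632885-18660164), the protease that removes ISG15 and also damps the type I interferon receptor, went the other way in ATRX_KO. It was at 12.6, 12.04 and 10.01 CPM in WT and 2.304, 2.31 and 2.66 in ATRX_KO, 0.212 times the WT level (log2 fold change -2.24, SE 0.22, adjusted p = 3.43e-07). In the DAXX series it was at 13.2, 13.1 and 12.5 CPM in WT and 20.1, 18.5 and 15.4 in DAXX_KO (log2 fold change 0.48, SE 0.15, adjusted p = 0.0118), a call that was lost without DAXX_KO control replicate 1 (adjusted p = 0.0665). The difference between the knockouts passed as well (2.72, SE 0.26, adjusted p = 7.28e-09). Of the 75-base stretches near the 3′ end of USP18 transcripts, 16.8% also occur in USP41, which had 1 count in all libraries against 2478 for USP18, so the split of reads between them is uncertain. The 53 tested genes around USP18 had a median of -0.48 in ATRX_KO, with 24 lower and 3 higher, and of -0.071 in DAXX_KO.

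IFITM2 and IFITM3 encode small membrane proteins that block the entry of enveloped viruses, and stand on chromosome 11 (GRCh37 chr11:303655-309397 and chr11:319676-329475). IFITM2 was at 79.97, 90.1 and 87.7 CPM in WT and 26.3, 24.6 and 21.8 in ATRX_KO, 0.283 times the WT level (log2 fold change -1.82, SE 0.089, adjusted p = 9.24e-11). IFITM3 was at 139, 147 and 146 CPM in WT and 64.4, 64.98 and 55.4 in ATRX_KO, 0.4298 times the WT level (log2 fold change -1.22, SE 0.084, adjusted p = 5.49e-09). In the DAXX series both were higher in the knockout: IFITM3 was at 90.8, 102 and 88.7 CPM in WT and 153, 149 and 161 in DAXX_KO (log2 fold change 0.72, SE 0.08, adjusted p = 3.46e-07). IFITM2 was at 74.3, 78.6 and 69.4 and 92.7, 85.1 and 89.1 CPM there (log2 fold change 0.26, SE 0.072, adjusted p = 0.00437). The libraries of the groups compared did not overlap for either gene. The difference between the knockouts was 2.09 for IFITM2 and 1.94 for IFITM3 on the log2 scale (adjusted p = 6.78e-14 and 8.19e-13). The genes around IFITM2 were spread around 0 in ATRX_KO. The 35 tested had a median of 0.085, with 9 lower and 6 higher. In DAXX_KO their median was 0.31, above the value of IFITM2 itself. The paralogs share sequence: 9.09% of the 75-base stretches at the 3′ end of IFITM2 and 7.37% of those of IFITM3 occur in the other gene. IFITM3 also differed between the WT cells of the series, by -0.61 on the log2 scale (adjusted p = 1.86e-05, DAXX series minus ATRX series).

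MX2 (GRCh37 chr21:42733926-42781320), a dynamin-like GTPase that restricts the nuclear import of HIV-1, was at 4.14, 3.51 and 3.78 CPM in WT and 1.54, 1.07 and 0.861 in ATRX_KO (log2 fold change -1.71, SE 0.30, adjusted p = 2.13e-04). In the DAXX series WT and knockout overlapped, at 3.53, 4.0996 and 3.54 and 4.07, 3.62 and 3.18 CPM (log2 fold change -0.038, SE 0.22, adjusted p = 0.901). The 60 tested genes around MX2 had a median of -0.61 in ATRX_KO, with 34 lower and 2 higher. IL10RB, IFNAR1 and IFNAR2, interferon receptor chains encoded on the same chromosome, were lower there as well, at -1.16, -0.55 and -0.52 on the log2 scale (adjusted p = 9.80e-09, 6.96e-04 and 0.00389), amid neighbors with medians of -0.76 to -0.77. IFNAR1 and IFNAR2 were named here after their values were seen. The value of IFNGR2, another receptor chain encoded on this chromosome, is not given. MX1, next to MX2, overlaps TMPRSS2 on the opposite strand and did not pass (log2 fold change 0.69, adjusted p = 0.216 for DAXX_KO; 0.091, 0.890 for ATRX_KO). IFIT1, which binds RNA that lacks 2′-O-methylation at its cap, was at 3.61, 4.26 and 2.86 CPM in WT and 1.71, 1.65 and 1.801 in ATRX_KO (log2 fold change -1.05, SE 0.26, adjusted p = 0.00372). It fell while its neighbors in the genome IFIT2 and IFIT3 were higher in ATRX_KO (log2 fold changes 0.88 and 0.92, adjusted p = 0.0144 and 6.57e-05). Exons of IFIT2 and IFIT3 overlap LIPA on the opposite strand, and no source used here says whether counting used the strand.

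**Figure D2:**
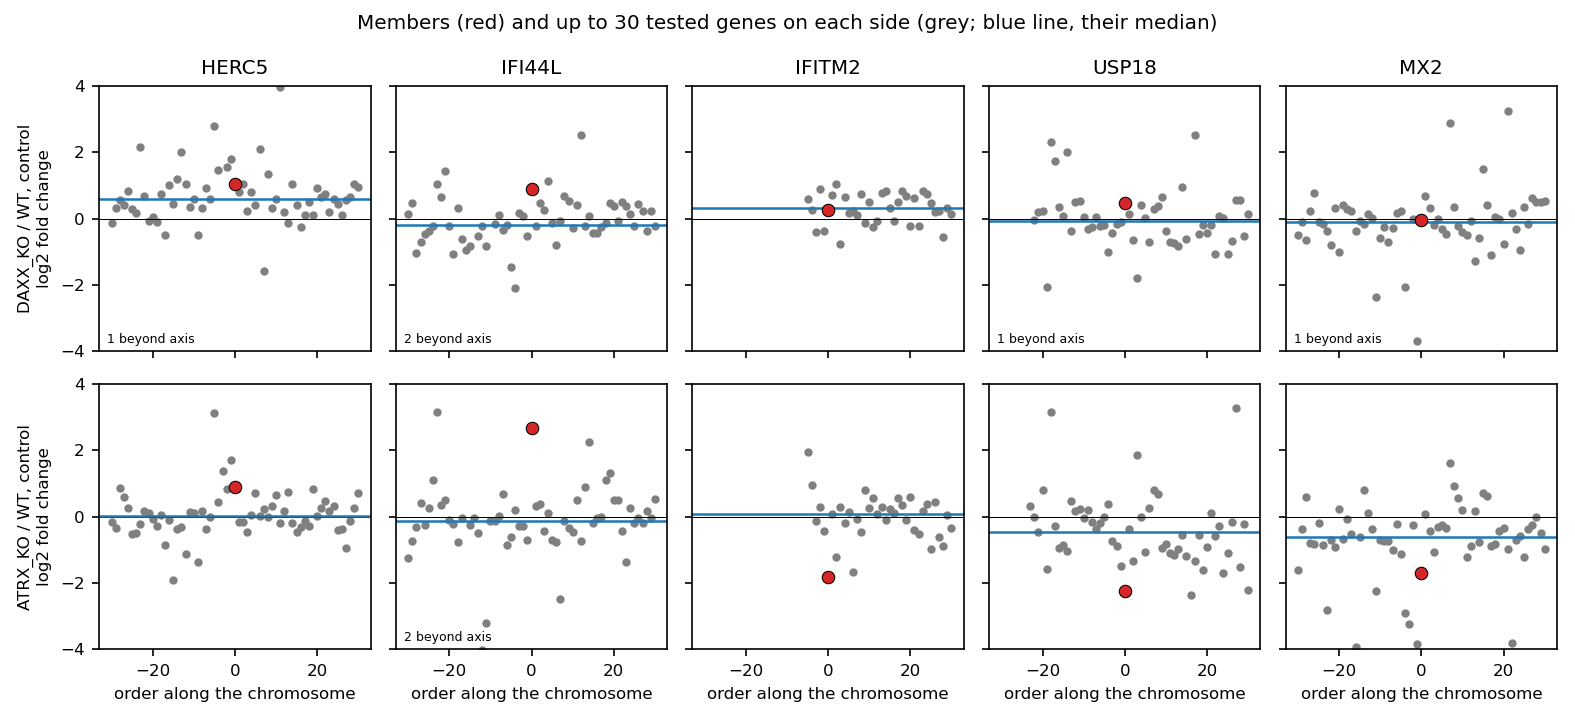
Log2 fold change against WT in control cells (y axis) for 5 members (red) and the tested genes up to 30 places away on each side (grey, x axis in order along the chromosome, blue line their median), with DAXX_KO above and ATRX_KO below; points past 4 in size are counted in the panels. The median near HERC5 is above 0 in DAXX_KO (0.59), those near USP18 (-0.48) and MX2 (-0.61) are below 0 in ATRX_KO, and IFI44L and IFITM2 stand away from genes whose median is near 0 in ATRX_KO (-0.13 and 0.085).

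The sensors had low counts. CGAS was at 2.22, 2.46 and 1.71 CPM in WT and 1.02, 0.6701 and 1.83 in DAXX_KO (5 to 22 counts per library), and at 1.15, 0.669 and 1.09 in WT and 1.28, 1.49 and 1.25 in ATRX_KO (8 to 18 counts). Libraries overlapped in the DAXX series, and in neither series did control cells pass (log2 fold change -0.84, SE 0.44, adjusted p = 0.121 in DAXX_KO and log2 fold change 0.46, SE 0.36, adjusted p = 0.335 in ATRX_KO). STING1 was at 1.92, 1.64 and 1.0996 CPM in WT and 1.02, 1.61 and 1.47 in DAXX_KO, and at 3.91, 3.09 and 2.35 in WT and 2.73, 1.82 and 2.897 in ATRX_KO. It passed in neither (log2 fold changes -0.20 and -0.33, SE 0.39 and 0.27, adjusted p = 0.697 and 0.353). IFIH1 was 1.86 ± 0.775 CPM in WT and 3.02 ± 0.526 in DAXX_KO, and 2.17 ± 0.593 and 3.26 ± 1.16 in the ATRX series (mean ± SD, n = 3), with adjusted p = 0.0889 and 0.110.

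Among the transcription factors, IRF1 was lower in both knockouts. It was at 58.3, 60.8 and 63.4 CPM in WT and 39.03, 42.9 and 49.6 in DAXX_KO (log2 fold change -0.47, SE 0.10, adjusted p = 7.49e-04), and at 69.99, 75.8 and 76.6 in WT and 59.8, 67.1 and 58.3 in ATRX_KO (log2 fold change -0.26, SE 0.075, adjusted p = 0.0107). IRF1 overlaps its antisense RNA. STAT2 was 26.3 ± 3.29 CPM in WT and 29.8 ± 2.58 in DAXX_KO, and 25.1 ± 3.01 and 23.6 ± 1.03 in the ATRX series, and passed in neither (adjusted p = 0.186 and 0.573). IRF7 did not pass either, at 1.31, 1.29 and 1.47 CPM in WT and 1.399, 0.804 and 1.59 in DAXX_KO, and 2.61, 2.01 and 2.86 and 2.902, 2.98 and 3.21 in the ATRX series. IRF9 was higher in ATRX_KO (6.202 ± 1.03 CPM against 3.31 ± 0.624 in WT, log2 fold change 0.90, SE 0.22, adjusted p = 0.00367). An overlapping gene model on the same strand shares 33.4% of the 75-base stretches at its 3′ end and had 1503 counts in all against 1295 for IRF9, so its value is uncertain.

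IRF9 of the DAXX series overlapped between genotypes (2.95 ± 0.531 CPM in WT and 3.79 ± 0.437 in DAXX_KO, adjusted p = 0.241). The effectors that remain differed by less than 2-fold in control cells. SAMD9, an endosomal protein that restricts poxviruses, was at 82.1, 78.6 and 78.2 CPM in WT and 46.2, 42.3 and 41.8 in DAXX_KO, and at 81.4, 77.01 and 74.1 and 48.6, 45.8 and 49.6 in the ATRX series (log2 fold changes -0.87 and -0.69, adjusted p = 1.16e-07 and 4.57e-06). IFI6, a mitochondrial and endoplasmic reticulum protein, was lower in both as well (-0.88 and -0.70, adjusted p = 1.19e-05 and 0.00208). SAMD9L, the neighbor and paralog of SAMD9, was lower in ATRX_KO (-0.75, adjusted p = 1.67e-04) and at 0.20 in DAXX_KO with adjusted p = 0.126. IFI35 was higher in both (0.86 and 0.68, adjusted p = 3.69e-04 and 0.00195), and ISG15 itself in DAXX_KO (0.96, adjusted p = 0.0204, against 0.59 and adjusted p = 0.114 in ATRX_KO). TRIM22 was higher by 0.36 and 0.41 and IFIT5 lower in DAXX_KO (-0.33, adjusted p = 0.0353). XAF1, a proapoptotic partner of XIAP, did not pass (0.67 and 0.79, adjusted p = 0.209 and 0.0904). These genes were not chosen by the naming rule and were named after their values were seen.

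**Figure D3:**
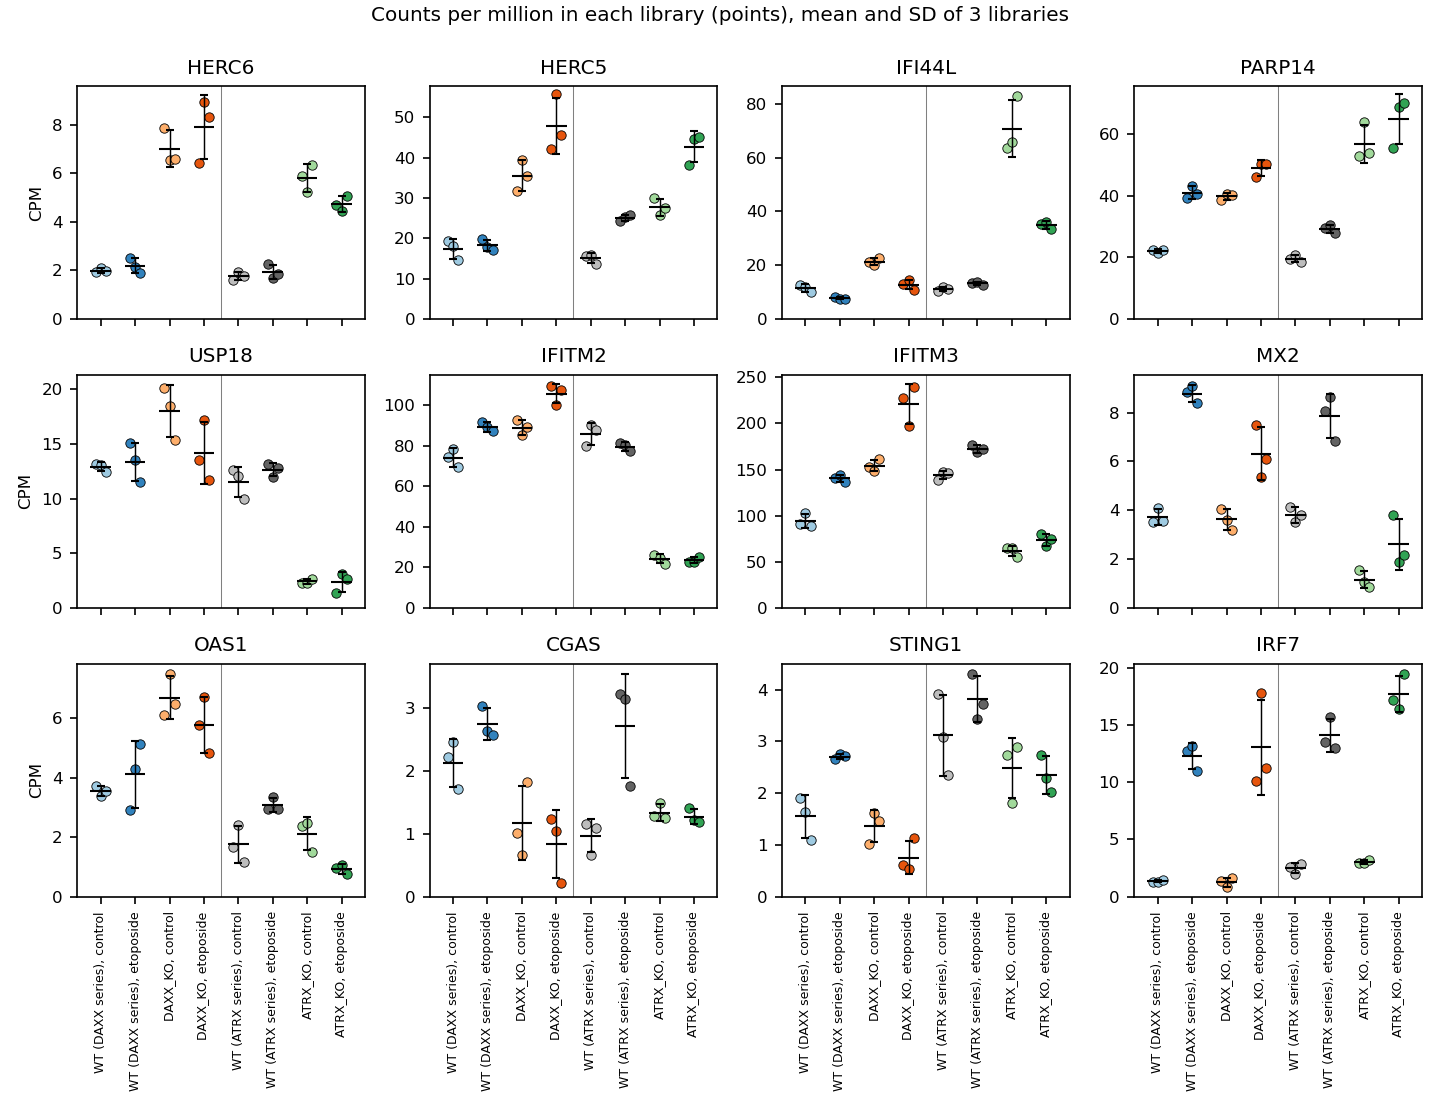
CPM (y axis, from 0) of 12 members in each library, with the mean and SD of the 3 libraries of each group; the DAXX series is left of the grey line. HERC6, HERC5, IFI44L and PARP14 are higher in the control cells of both knockouts, USP18, IFITM2, IFITM3 and MX2 are lower in ATRX_KO, and IRF7 is high in the 4 etoposide groups, between 10.1 and 19.4 CPM.

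Which members answered to etoposide was asked next, within each genotype. In WT cells of the DAXX series 17 of 36 members were higher with etoposide and 5 lower (29.6% and 30.6% of all genes), and in WT cells of the ATRX series 19 of 37 were higher and 3 lower (31.7% and 29.8%). The median log2 fold change of the members was 0.64 and 0.61, against 0.023 and 0.068 over all genes. Those higher in WT of both series were 15: IFIH1, STAT2, IRF7, IFIT2, IFIT3, OAS2, OASL, ISG15, IFITM3, MX2, IFI6, IFI35, ISG20, TRIM22 and PARP14. Of all 15039 genes tested in both series, 24.4% were higher in both. The OASL calls were lost under 10 alternatives in the DAXX series (adjusted p = 0.0534 to 0.226) and 6 in the ATRX series (adjusted p = 0.0528 to 0.161), the replicate block among them in each. IFI44 and SAMD9 were lower in both, as were 26.8% of all genes. SAMD9 in the DAXX series was lost under DESeq2, RLE factors, library totals, at least 10 counts in every library and 5 single libraries left out (adjusted p = 0.0505 to 0.157), and IFI44 in the ATRX series without WT control replicate 1 or WT etoposide replicate 1 or 2 (adjusted p = 0.0521 to 0.0963). The 2 WT responses had a Spearman correlation of 0.868 across 36 members and 0.884 across all shared genes. In DAXX_KO 17 members were higher with etoposide and 7 lower (26.8% and 27.8% of all genes), and in ATRX_KO 16 were higher and 5 lower (24.3% and 25.2%), with medians of 0.28 and 0.31. In the DAXX series 16 members were higher with etoposide in both genotypes, and in the ATRX series 13 were, where 20.6% and 19.9% of all genes were. Of the 16, IFITM2, IRF9 and OASL lost a call under 1 or more alternatives, and of the 13, IFIH1, IFITM3 and OAS2. OASL in DAXX_KO was lost under 9 (adjusted p = 0.0667 to 0.143).

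IRF7, the factor that amplifies interferon transcription, was at 1.31, 1.29 and 1.47 CPM in WT control cells and 12.8, 13.2 and 10.98 with etoposide in the DAXX series (log2 fold change 3.19, SE 0.27, adjusted p = 3.70e-09). In the ATRX series it went from 2.61, 2.01 and 2.86 to 13.6, 15.7 and 13.02 CPM (log2 fold change 2.52, SE 0.17, adjusted p = 9.89e-10). The rise was 10.2-fold in DAXX_KO and 5.78-fold in ATRX_KO, against 9.13-fold and 5.72-fold in WT. The interactions did not pass (0.16, SE 0.43, adjusted p = 0.858 and 0.014, SE 0.25, adjusted p = 0.984). STAT2 went from 24.5, 30.1 and 24.3 to 57.04, 55.2 and 56.5 CPM in WT of the DAXX series and from 22.2, 28.2 and 24.8 to 41.7, 40.8 and 44.3 in WT of the ATRX series (2.16-fold and 1.72-fold, adjusted p = 2.83e-08 and 2.93e-06). No library with etoposide overlapped a control library for either gene. MX2 rose in both WT and both knockout cells, from 4.14, 3.51 and 3.78 to 8.08, 8.63 and 6.85 CPM in WT of the ATRX series (log2 fold change 1.06, SE 0.25, adjusted p = 0.00144) and from 1.54, 1.07 and 0.861 to 3.79, 1.86 and 2.17 in ATRX_KO (log2 fold change 1.14, SE 0.31, adjusted p = 0.00592). The interaction was 0.081 (SE 0.38, adjusted p = 0.917), and ATRX_KO was below WT with etoposide too.

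ISG20, TRIM22 and ISG15, which the naming rule does not include and which were chosen after their values were seen, rose with etoposide by over 2-fold in WT and knockout cells of both series. ISG20, an RNA exonuclease, went from 0.384, 0.669 and 0.757 CPM to 5.66, 6.03 and 4.503 in WT of the ATRX series (log2 fold change 3.18, SE 0.31, adjusted p = 1.53e-07) and from 0.404, 0.8199 and 0.244 to 3.16, 3.59 and 4.203 in WT of the DAXX series (log2 fold change 2.88, SE 0.39, adjusted p = 3.12e-06). Its control values were low. In the WT control libraries, 3 counts stand at 0.230 to 0.252 CPM in the ATRX series and 0.303 to 0.367 in the DAXX series. ISG20 had no call where at least 10 counts in every library were required. TRIM22, an antiviral ubiquitin ligase, went from 12.7, 11.8 and 15.3 to 60.3, 53.95 and 54.6 CPM in WT and from 17.3, 19.03 and 14.7 to 74.4, 81.5 and 66.5 in DAXX_KO (log2 fold changes 2.104 and 2.13, adjusted p = 7.41e-12 and 5.95e-12). ISG15, the ubiquitin-like modifier itself, rose 2.697-fold in WT and 2.56-fold in DAXX_KO, and 2.54-fold in WT and 2.58-fold in ATRX_KO (adjusted p between 2.83e-04 and 7.06e-04). HERC6, USP18 and MX1 did not pass in any of the 4 etoposide responses, with adjusted p of 0.0935 or more for MX1, 0.208 or more for HERC6 and 0.0672 or more for USP18. STING1, IRF1, IFIT5 and XAF1 passed in none of the 4 either.

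**Figure D4:**
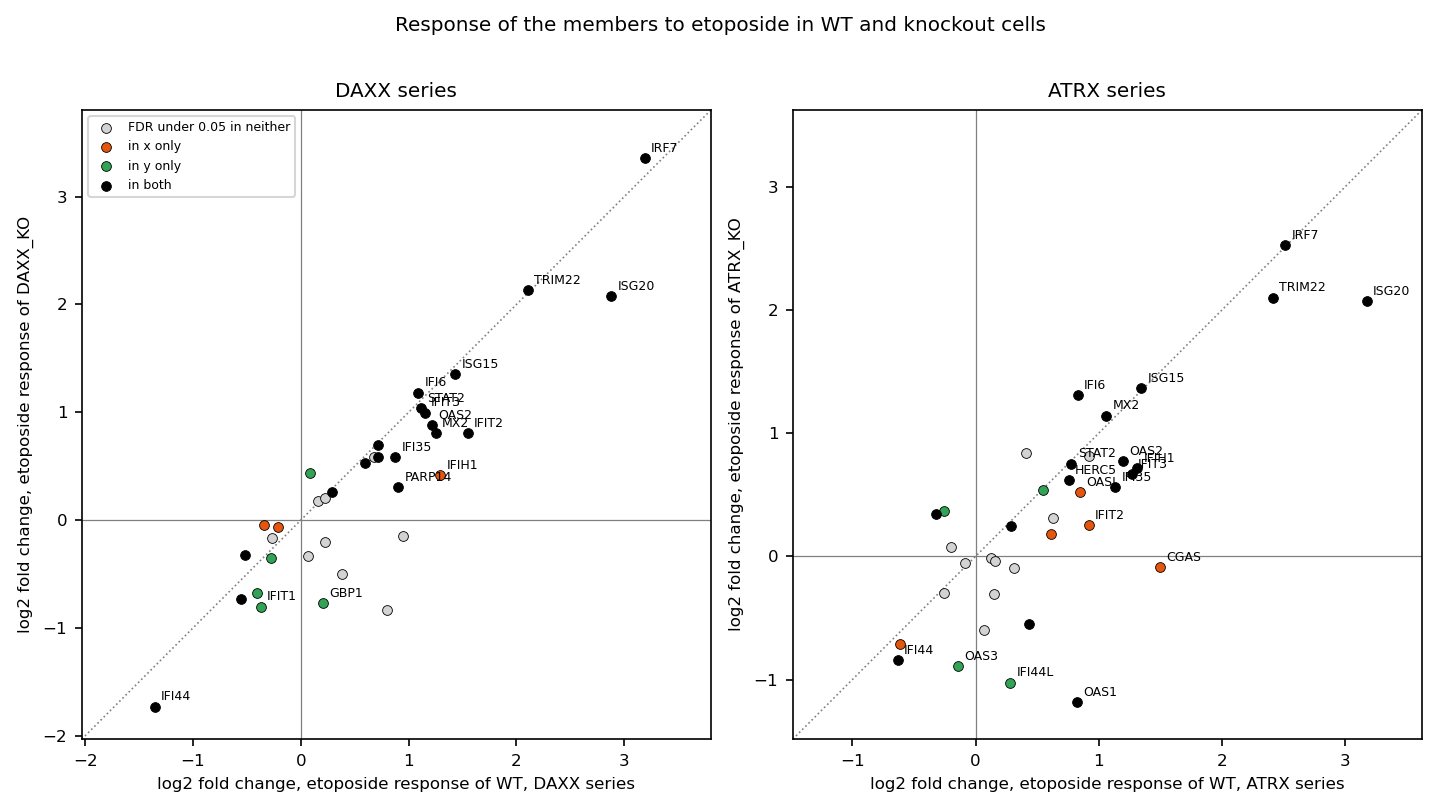
Log2 fold change with etoposide in WT (x axis) and in knockout cells (y axis) for the members, DAXX series on the left and ATRX series on the right; the dotted line marks equal responses and color marks where the false discovery rate was under 0.05. IRF7, TRIM22 and ISG20 are at the upper right in both panels, and OAS1, CGAS and IFI44L lie below the line in the ATRX series.

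Whether a knockout changed the answer to etoposide was tested as an interaction. In the DAXX series 2 members passed, both below 0, GBP1 and PARP14, where 5.79% of all genes were below 0 and 8.38% above. By edgeR 0 members were above 0, also at an unadjusted p under 0.05, at which 3 were below, and DESeq2 called 0 above and 2 below. With library totals alone the split of all genes turned, to 8.91% below 0 and 5.2% above, and 3 members were below 0. In the ATRX series 6 members were below 0 and 2 above, where 7.64% and 8.36% of all genes were. The 8 fell to 5 without WT etoposide replicate 1 or ATRX_KO etoposide replicate 2. IFIT3 (interaction -0.60, adjusted p = 0.0446) was lost under RLE factors, library totals, the replicate block and 9 of the 12 single libraries left out (adjusted p = 0.05004 to 0.125), and SAMD9L (0.62, adjusted p = 0.0283) under 6 of them (adjusted p = 0.0537 to 0.0712). OAS1 was at 1.69, 2.42 and 1.18 CPM in WT control cells and 2.96, 3.34 and 2.94 with etoposide, and in ATRX_KO it went from 2.39, 2.48 and 1.49 to 0.971, 1.07 and 0.747 (10 to 36 counts per library with etoposide). It rose in WT (log2 fold change 0.82, SE 0.32, adjusted p = 0.0319) and fell in ATRX_KO (log2 fold change -1.18, SE 0.35, adjusted p = 0.00916), and the interaction was -2.01 (SE 0.47, adjusted p = 0.00821). The rise in WT was lost with no filter on low counts (adjusted p = 0.0856). It was also lost without WT control replicate 1 or 3 or WT etoposide replicate 1, 2 or 3 (adjusted p = 0.0587 to 0.135). In WT of the DAXX series OAS1 was not called with etoposide. IFI44L fell in ATRX_KO from 63.6, 65.8 and 82.9 to 35.2, 36.2 and 33.5 CPM while WT was at 10.2, 11.8 and 11.1 and 13.3, 13.7 and 12.5 (interaction -1.31, SE 0.16, adjusted p = 5.70e-05). It still stood above WT with etoposide. CGAS rose in WT of the ATRX series, from 1.15, 0.669 and 1.09 to 3.23, 3.16 and 1.76 CPM (log2 fold change 1.498, SE 0.34, adjusted p = 0.00119), and was at 1.28, 1.49 and 1.25 and 1.41, 1.22 and 1.195 in ATRX_KO. In WT of the DAXX series the CGAS response to etoposide was not called. The CGAS interaction in the ATRX series (-1.58, SE 0.49, adjusted p = 0.0379) was lost with no filter on low counts and with the replicate block (adjusted p = 0.0723 and 0.0582). It was also lost without WT control replicate 2 or 3, WT etoposide replicate 1 or 2, ATRX_KO control replicate 1 or 2 or ATRX_KO etoposide replicate 2 or 3 (adjusted p = 0.0552 to 0.0968).

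GBP1, a GTPase chosen here after its values were seen, passed in both series (interactions -0.97 and -0.98, adjusted p = 4.37e-04 and 0.00324). In DAXX_KO it went from 23.01, 21.7 and 20.5 to 14.8, 11.98 and 11.4 CPM and in ATRX_KO from 20.5, 20.01 and 24.04 to 16.1, 16.5 and 11.8, and in WT it was at 18.8, 18.9 and 18.3 and 20.4, 22.01 and 21.3 in the DAXX series. It fell with etoposide in both knockouts (log2 fold changes -0.77 and -0.55, adjusted p = 1.51e-05 and 0.00307). PARP14 rose less in DAXX_KO than in WT, from 38.5, 40.6 and 40.2 to 45.9, 50.4 and 50.3 CPM against 22.5, 21.4 and 22.4 to 39.1, 43.2 and 40.4 (-0.60, SE 0.12, adjusted p = 0.00186), and in the ATRX series the interaction was -0.43 with adjusted p = 0.0638.

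With etoposide present, 15 members were higher and 8 lower in DAXX_KO than in WT (27.9% and 25.2% of all genes), and 7 were higher and 9 lower in ATRX_KO (23.0% and 22.9%). The member medians were 0.24 and -0.0032, against 0.011 and 0.013 over all genes. ISG15, HERC5, HERC6, IFI44L and PARP14 were higher in both, and CGAS, STING1, IRF1, IFIT1 and MX2 were lower in both, where 12.4% and 12.8% of all genes were. ISG15 in ATRX_KO (log2 fold change 0.62, SE 0.25, adjusted p = 0.0498) lost its call with the replicate block and without any 1 of the 6 libraries compared (adjusted p = 0.0513 to 0.169), and in DAXX_KO without 1 library (adjusted p = 0.0563). With library totals alone 11 members were higher and 8 lower in ATRX_KO, where 28.6% and 18.9% of all genes were. The correlation of the knockouts across members was 0.482, and 0.445 across all genes. HERC6 was at 2.53, 2.15 and 1.898 CPM in WT with etoposide and 6.41, 8.94 and 8.34 in DAXX_KO, and at 2.24, 1.67 and 1.86 and 4.68, 4.44 and 5.08 in the ATRX series (3.57-fold and 2.401-fold, adjusted p = 1.42e-06 and 1.66e-04). HERC5 was 2.61-fold and 1.67-fold higher (adjusted p = 2.38e-08 and 1.19e-05). For both genes every knockout library was above every WT library.

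STING1 and CGAS were lower in both knockouts in this setting, and IFIH1 passed in neither (adjusted p = 0.566 and 0.986). STING1 was at 2.66, 2.75 and 2.71 CPM in WT with etoposide and 0.616, 0.526 and 1.13 in DAXX_KO, 0.282 times the WT level (5 to 23 counts per library, log2 fold change -1.83, SE 0.39, adjusted p = 6.12e-04). In the ATRX series it was at 4.31, 3.43 and 3.72 and 2.74, 2.29 and 2.02 CPM (log2 fold change -0.73, SE 0.27, adjusted p = 0.0323). That call was lost with library totals alone and with no filter on low counts (adjusted p = 0.0606 and 0.0644). It was also lost without WT etoposide replicate 1, 2 or 3 or ATRX_KO etoposide replicate 2 or 3 (adjusted p = 0.0503 to 0.129). CGAS was at 3.04, 2.63 and 2.58 CPM in WT and 1.23, 1.05 and 0.225 in DAXX_KO (2 to 24 counts, log2 fold change -1.71, SE 0.45, adjusted p = 0.00343). In the ATRX series it was at 3.23, 3.16 and 1.76 and 1.41, 1.22 and 1.195 CPM (log2 fold change -1.12, SE 0.33, adjusted p = 0.0108), which was lost without WT etoposide replicate 1 or 2 (adjusted p = 0.0518 to 0.0581). Every knockout library was below every WT library in these 4 comparisons. The WT control cells differed as well, with STING1 lower in the DAXX series (log2 fold change -0.99, SE 0.29, adjusted p = 0.0253). This call was lost with no filter on low counts (adjusted p = 0.0855). It was also lost without DAXX series WT control replicate 2 or 3 or ATRX series WT control replicate 1 or 2 (adjusted p = 0.0559 to 0.146). IFIT1 and MX2 in DAXX_KO were close to the threshold (log2 fold changes -0.74 and -0.49, adjusted p = 0.0420 and 0.0325), and each call was lost under DESeq2 (adjusted p = 0.0610 and 0.0663). The IFIT1 call was also lost with library totals, no filter on low counts, the replicate block or the groups compared alone (adjusted p = 0.0514 to 0.0679). Leaving out WT etoposide replicate 1 or 3 or DAXX_KO etoposide replicate 2 or 3 lost it as well (adjusted p = 0.0692 to 0.150). The MX2 call was also lost with library totals, no filter on low counts or all 24 libraries in 1 model (adjusted p = 0.0611 to 0.0873). Leaving out WT etoposide replicate 1, 2 or 3 or DAXX_KO etoposide replicate 2 or 3 lost it as well (adjusted p = 0.0534 to 0.129). PARP14 was 1.19-fold higher in DAXX_KO (adjusted p = 0.0134). Its call was lost under DESeq2, with no filter on low counts and without WT etoposide replicate 1 (adjusted p = 0.0608 to 0.0813).

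**Figure D5:**
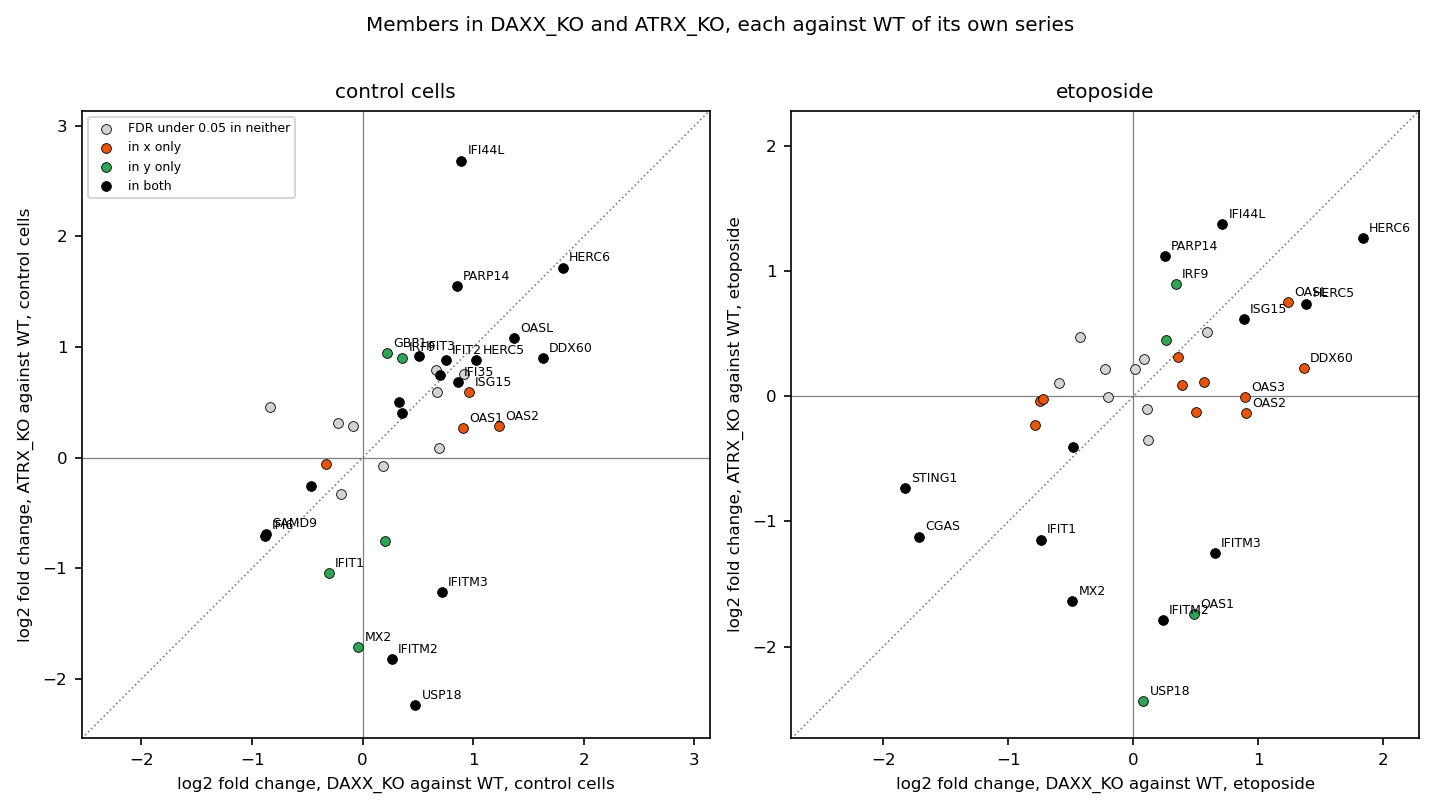
Log2 fold change against WT for the members in DAXX_KO (x axis) and ATRX_KO (y axis), in control cells on the left and with etoposide on the right; the dotted line marks equal change and color marks where the false discovery rate was under 0.05. HERC6, IFI44L and PARP14 are at the upper right in both panels, USP18, IFITM2 and IFITM3 at the lower right, and CGAS and STING1 move to the lower left with etoposide.

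Whether DAXX_KO and ATRX_KO differed from each other was tested in a model of all 24 libraries. In control cells the DAXX_KO effect exceeded the ATRX_KO effect for 5 members and fell below it for 3, where 17.0% and 17.2% of all 16674 genes did, and with etoposide for 10 and 6 (17.7% and 16.8%). With library totals alone the control cells gave 7 and 3, where 21.3% and 12.7% of all genes did. The 5 in control cells were USP18, IFITM2, IFITM3, MX2 and SAMD9L, and the 3 were GBP1, IFI44L and PARP14. With etoposide OAS1, OAS2 and OAS3 were added to those with the larger value in DAXX_KO (differences 2.21, 1.02 and 0.88, adjusted p = 6.27e-05, 0.0220 and 2.52e-04), of which OAS2 was lost without WT etoposide replicate 1, DAXX_KO etoposide replicate 3 or WT etoposide replicate 2 or 3 (adjusted p = 0.0556 to 0.0680). OAS1 was then at 2.91, 4.31 and 5.15 CPM in WT and 5.79, 6.73 and 4.85 in DAXX_KO, against 2.96, 3.34 and 2.94 and 0.971, 1.07 and 0.747 in the ATRX series. The 2 WT controls, which carry no knockout, differed from each other for 7 of 37 members, 2 higher in the DAXX series (OAS1 and GBP1) and 5 lower (STING1, IRF1, IRF7, OAS3 and IFITM3), where 6.01% and 7.22% of all genes were. With library totals alone 3.99% of all genes were higher and 9.64% lower, and 2 members higher and 6 lower. OAS1 and GBP1 differed by 1.01 and 0.74, and IRF7, OAS3 and IRF1 by -0.88, -0.37 and -0.29. The count fell to 3 or 4 without any 1 of the 6 libraries.

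The 4 members not described so far had few counts, and 3 of them were tested in neither series. BST2, which tethers budding virions to the membrane, had 1, 1 and 1 counts in the WT control libraries of the DAXX series and 7, 4 and 12 in DAXX_KO, and 0, 0 and 1 and 4, 2 and 5 in the ATRX series. WT was at or under 3 counts in all libraries, while DAXX_KO control libraries were above. IFITM1 had 1, 5 and 10 counts in DAXX_KO control cells, 1 count in 1 DAXX_KO library with etoposide and 0 in the others. RSAD2 had 1 to 14 counts, and IFI27, tested in the ATRX series alone, had 1 to 17.

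The other genes of the pathway come from 3 lists. Of the 18 interferon ligands, receptors, kinases and regulators, 12 were tested: 3 were higher and 3 lower in DAXX_KO control cells, and 3 higher and 6 lower in ATRX_KO, with medians of -0.049 and -0.45. Of all genes tested, 26.7% were higher and 26.6% lower in DAXX_KO, and 20.8% and 21.0% in ATRX_KO. SOCS3, the feedback inhibitor of cytokine receptors, was lower in both. It was at 190.2, 169 and 169 CPM in WT and 70.3, 64.9 and 61.6 in DAXX_KO (log2 fold change -1.42, SE 0.084, adjusted p = 4.93e-11), and at 179, 151 and 149 and 49.4, 60.2 and 64.4 in the ATRX series (log2 fold change -1.46, SE 0.10, adjusted p = 3.63e-09). IFNLR1, a receptor chain for interferon lambda, was at 0.767, 0.585 and 0.757 CPM in WT and 2.99, 4.38 and 3.602 in ATRX_KO (log2 fold change 2.36, SE 0.37, adjusted p = 6.57e-05), and IL10RB, the chain it pairs with, was lower there. JAK1 was higher in both knockouts (log2 fold changes 0.46 and 0.65, adjusted p = 5.26e-05 and 1.04e-06) and reached 1.16 in ATRX_KO with etoposide (adjusted p = 1.86e-09).

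All 19 nucleic acid sensing genes were tested, and 10 were higher and 4 lower in DAXX_KO control cells against 4 and 4 in ATRX_KO (26.7% and 26.6%, and 20.8% and 21.0%, of all genes). TLR3, the endosomal receptor for double-stranded RNA, was at 0.605, 0.351 and 0.855 CPM in WT and 1.27, 2.14 and 2.57 in DAXX_KO (log2 fold change 1.71, SE 0.45, adjusted p = 0.00353). In the ATRX series it had 0, 1 and 8 counts in WT and 21, 24 and 25 in ATRX_KO (log2 fold change 2.91, SE 0.59, adjusted p = 7.86e-04). AIM2, a sensor of cytosolic DNA, was at 9.29, 11.1 and 9.33 CPM in WT and 22.6, 33.8 and 32.7 in ATRX_KO (log2 fold change 1.59, SE 0.14, adjusted p = 1.27e-07) and was higher in DAXX_KO by 0.85 (adjusted p = 1.98e-04). ZBP1, a sensor of Z-form nucleic acids, had 5, 5 and 4 counts in WT and 1, 1 and 1 in DAXX_KO (log2 fold change -1.92, SE 0.74, adjusted p = 0.0353). With etoposide ZBP1 was at 2.403, 1.56 and 1.63 CPM in WT and 0.246, 0.841 and 0.451 in DAXX_KO (adjusted p = 0.00271). MAVS, the adaptor of RNA sensing, and TREX1, a DNA exonuclease that limits cGAS, were higher in DAXX_KO with etoposide (log2 fold changes 1.08 and 1.01, adjusted p = 1.81e-06 and 1.47e-05), and RNASEH2A was lower in ATRX_KO with etoposide (log2 fold change -1.03, adjusted p = 4.93e-09).

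Of the 20 genes of ISG15 conjugation and other interferon-induced genes, 18 were tested in each series, 7 higher and 2 lower in DAXX_KO control cells and 5 and 3 in ATRX_KO, where the shares of all genes were 26.7% and 26.6% in the first and 20.8% and 21.0% in the second. UBA7, the enzyme that activates ISG15 before HERC5 attaches it, had the largest rise of the list. It was at 1.92, 2.58 and 2.08 CPM in WT and 10.7, 13.7 and 13.6 in DAXX_KO, 5.77-fold (log2 fold change 2.53, SE 0.24, adjusted p = 3.28e-08), and at 1.995, 2.84 and 3.78 and 4.61, 5.13 and 6.42 in the ATRX series (log2 fold change 0.92, SE 0.25, adjusted p = 0.00698). UBE2L6, the conjugating enzyme of the same pathway, was higher by 0.50 and 0.82 (adjusted p = 1.73e-05 and 2.44e-06), a gene named here after its values were seen. The activating enzyme, the conjugating enzyme and the HERC5 ligase of ISG15 were all higher in the control cells of both knockouts. These genes were picked from longer lists, and TRIM25 of the present list is not given. The median log2 fold change of the present list was 0.15 in DAXX_KO and -0.0072 in ATRX_KO control cells. ISG15 itself was called in DAXX_KO, a call lost without any 1 of 3 libraries (adjusted p = 0.0557 to 0.107), and was not called in ATRX_KO. The protease USP18 was higher in DAXX_KO and lower in ATRX_KO. DTX3L, the partner of PARP9, reached 1.04 in ATRX_KO with etoposide (adjusted p = 6.98e-08).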

How the data were processed

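RNA was sequenced from 24 libraries of U87-T cells, 3 for each of 8 groups, as 75-base single-end reads. According to the study's methods, reads were aligned with STAR to hg19 and counted per Ensembl GRCh37 gene with RSEM (version 1.2.3 in the submitters' processing notes). The authors deposited these RSEM expected counts, which need not be whole, and they were stored here as integers, which drops any fraction. The authors tested with DESeq2. Whether counting used the strand is not given in the sources used here. Titles and column names set the groups. Gene symbols were matched for 55501 of 57736 identifiers, which held 98.8% of all counts.

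The members and lists were chosen with earlier results of these data known. Genes with at least 10 counts in enough libraries and 15 in total (filterByExpr) were tested with edgeR 4.0.16 (quasi-likelihood, TMM scaling, R 4.3.3) in 1 model for each series of 12 libraries, and in 1 model of all 24 for comparisons between series. P-values were adjusted by Benjamini-Hochberg over all genes tested, at a threshold of 0.05. CPM values use TMM over all 24 libraries, so small differences between CPM ratios and fitted fold changes occur. The fit was tested on simulated data. Library totals of 6928950 to 13298557 counts set the precision, and intervals and floors cover counting error only. Libraries of a group differed by more than sampling noise (chi-square per degree of freedom 2.16 to 17.1 over 24 pairs), so no pair was counted as 1 library deposited again. A member was described by library where it was called with a log2 fold change of at least 1 in a knockout comparison or an interaction, as were the sensors and transcription factors. Neighbors were the 30 tested genes on each side. Alternatives were DESeq2 1.42.0, RLE factors, library totals, other filters, a replicate block, the groups compared alone, all 24 libraries in 1 model, and each library left out. No set test was run.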

Additional observations from a re-analysis of the deposited data

Results flagged for a closer look

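These values were singled out because a test found that an effect differed between 2 groups. The difference of the etoposide response between DAXX_KO and WT was -0.97 for GBP1 and -0.60 for PARP14 on the log2 scale. Between ATRX_KO and WT it was -2.01 for OAS1, -1.58 for CGAS, -1.31 for IFI44L, -0.98 for GBP1, -0.75 for OAS3 and -0.60 for IFIT3, and above 0 for SAMD9 (0.67) and SAMD9L (0.62). The IFIT3 value lost its call under 12 alternatives (adjusted p = 0.05004 to 0.125), RLE factors, library totals and the replicate block among them, SAMD9L under 6 (adjusted p = 0.0537 to 0.0712) and CGAS under 10 (adjusted p = 0.0552 to 0.0968), the replicate block among them.

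The DAXX_KO effect minus the ATRX_KO effect in control cells was 2.72 for USP18, 2.09 for IFITM2, 1.94 for IFITM3, 1.68 for MX2 and 0.96 for SAMD9L. It was -1.79 for IFI44L, -0.72 for GBP1 and -0.70 for PARP14.

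With etoposide the same difference was 2.49 for USP18, 2.21 for OAS1, 2.004 for IFITM2, 1.88 for IFITM3, 1.13 for MX2, 1.12 for DDX60, 1.02 for OAS2, 0.88 for OAS3, 0.62 for HERC5 and 0.61 for SAMD9L. It was below 0 for PARP14 (-0.89), GBP1 (-0.73), SAMD9 (-0.72), IFI44L (-0.69), IFI6 (-0.58) and IFIT5 (-0.46). The DDX60 value lost its call without WT etoposide replicate 3 of the ATRX series (adjusted p = 0.0780), and OAS2, IFI6 and IFIT5 under 4 each (adjusted p = 0.0556 to 0.0680, 0.0545 to 0.118 and 0.0613 to 0.1063). No knockout line had a second clone, so clone and gene cannot be told apart for any of these values.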

How the results depend on the processing

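The counts of members called stayed within 1.5 times of the reported counts under every alternative for 11 of the 13 comparisons. Under leave-one-out the ranges were 19 to 21 and 19 to 24 for DAXX_KO against WT in control and etoposide cells, 20 to 23 and 12 to 17 for ATRX_KO, 19 to 22 and 17 to 21 for the WT responses to etoposide of the DAXX and ATRX series, and 20 to 24 and 17 to 21 for those of DAXX_KO and ATRX_KO. They were 2 to 3 and 5 to 7 for the interactions of DAXX_KO and ATRX_KO, 8 to 10 and 13 to 16 for the difference between the knockouts in control and etoposide cells, and 3 to 4 for the comparison of the WT controls. The comparison of the WT controls gave 3 members without a filter on low counts and 4 with a replicate block, against 7. The interaction of ATRX_KO gave 8, 6 with the replicate block and 5 at the lowest on leaving out 1 library. Apart from the WT controls, where it gave 553 genes higher and 691 lower over all genes, the block moved no count of members by over 1.5 times. Same-numbered libraries did not deviate together (correlations -0.326 to 0.0786 over 36 pairs, 0 of them over 0.1). This cannot decide whether they shared a culture or a batch, which the labels do not give. Reading IFITM2 relative to its neighbors turned its sign in DAXX_KO control cells (-0.043), with etoposide (-0.063), and in the etoposide response of WT (-0.14) and of DAXX_KO (-0.27) in the DAXX series; these values are the difference from the median of genes whose own median moved the same way. Among single genes, 1722 values kept their direction and side of the threshold, 135 lost their call and 43 moved. Low counts (CGAS had 2 to 36 per library) limit what can be seen of the sensors.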

Other observations

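The values of some genes beside HERC5 and MX2, named after they were seen, follow. On the side of HERC6, SPP1 (osteopontin) had log2 fold changes of 2.79 in DAXX_KO and 3.12 in ATRX_KO control cells near HERC5, and the transporter gene ABCG2 had 4.34 and 1.38 (edgeR adjusted p = 5.72e-09 and 0.0508). PKD2 had 1.47 and 0.44, and PPM1K, next to HERC6, had 1.57 and 0.84 near HERC5. Beside MX2, FAM3B had -3.71 in DAXX_KO and -3.84 in ATRX_KO, and B3GALT5 had -2.07 and -2.91. MX2 itself was not called in DAXX_KO control cells. The ABCG2 value in ATRX_KO was not past the threshold. Apart from ABCG2, these genes are given by fold change only, without their calls or counts. They were picked from many neighbors and do not stand for the rest. Around HERC5 in ATRX_KO, more of the tested neighbors were lower than higher.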
